A study of Mus musculus with 8 samples.

Results

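Exocrine gland-secreted peptides (ESPs) are small peptides released into tears and saliva, and the Esp genes that encode them were followed here in the lacrimal gland (LG), the gland that makes the watery part of the tear film. The raw count table holds 15 Esp symbols among its 24552 genes, and 10 of them, taken by symbol, are the members described here: Esp1, Esp3, Esp4, Esp6, Esp8, Esp15, Esp16, Esp18, Esp24 and Esp31. Of the 10, 8 had enough reads to be tested together with all other genes, and Esp1 and Esp24 were counted too rarely.

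ESPs work as chemical signals between mice. They are picked up when an animal sniffs or touches the face of another, and they reach the vomeronasal organ, a sensory organ at the base of the nose, where neurons carry receptors of the V2R family. The best known member, ESP1, is released in male tears under the control of androgens, and it raises sexual receptivity in females through the receptor Vmn2r116. The sensory role of most other members is less well described.

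The RNA came from LGs of female C57BL/6J mice that were 10 to 11 months old. One group ate ad libitum (AL, n = 4) and the other received calorie restriction by 40% (CR, n = 4), each for 4 months. Libraries were made with a kit that reads only the 3′ end of each mRNA, so counts were not divided by gene length and are not compared here as molar levels. Each library is labelled as a separate sample, and the p-values describe the spread between these libraries.

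The libraries held between 12051881 and 22156511 counts, so that a gene with 3 counts stood at 0.152 to 0.231 CPM, the unit of all levels below (counts relative to the library total, scaled for library composition). The 10 markers fixed for the LG, among them Pax6 and Aqp5, were found in both groups, with a summed level of 1215 to 1733 CPM in AL and 1446 to 1815 CPM in CR. Of these, Sox10 was called by edgeR, with a log2 fold change of 2.13, while DESeq2 called 4 and voom 3. Lpo held the largest part of the sum (mean 787 CPM in AL and 765 CPM in CR), so the sum says little of the other markers. On the log2 scale 7 of the 10 were above 0, while Pax6 was at −0.68 and not called by edgeR. Transcripts known from the parotid, a salivary gland that lies close to the LG of the mouse, were also present and differed between the diets, and whether they came from parotid tissue or from the LG itself cannot be told apart in these libraries. The 7 parotid markers, among them the saliva protein gene Bpifa2, summed to between 13808 and 43311 CPM in AL and to between 56392 and 304314 CPM in CR, none of them was at 0 in every library, and 3 of the 7 were called higher in CR (7 by DESeq2 and 2 by voom), beside 1.98% of all tested genes called in either direction (6.26% by DESeq2 and 3.54% by voom, with 16.7% at an unadjusted p under 0.05 in edgeR). Among the called markers, Prh1 and Prp2 had no count in AL replicates 2 and 4. They passed the filter on low counts through their CR libraries, so their calls are not independent of that filter. Of the 12 markers of submandibular and sublingual glands, 1 of the 4 tested was called higher in CR (Dcpp3; 3 called by DESeq2 and 1 by voom), the sum ran from 18.3 to 498 CPM in AL and from 272 to 5751 CPM in CR, and Ren1, Klk1b26 and Smgc were at 0 throughout. None of the 5 tested Harderian gland markers and none of the 5 tested skeletal muscle markers was called by edgeR (0 and 2 at an unadjusted p under 0.05, 0 and 1 called by DESeq2, 0 of both by voom), all 5 muscle markers were above 0 on the log2 scale, and 1 of the 4 tested white adipose markers was called higher in CR (2 called by DESeq2 and 1 by voom), with all 4 above 0 on the log2 scale. The Harderian sum was 46.0 to 107 CPM in AL and 68.9 to 139 CPM in CR, the muscle sum 1.04 to 11.9 CPM in AL and 2.90 to 59.5 CPM in CR, and the adipose sum 4.93 to 11.5 CPM in AL and 17.99 to 57.1 CPM in CR.

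The 10 Esp genes lie together on chromosome 17, and pairs of their promoters differ widely in how closely they resemble each other. All 15 Esp symbols of the count table fall between positions 38416474 and 40731782 (GRCm38.p6, RefSeq), a stretch of 2.32 megabases that holds 28 RefSeq genes. The promoters of Esp3 and Esp6 are printed because the genes lie in the same stretch and behaved differently under CR. Each sequence runs from 250 bases before to 50 bases after the annotated start of transcription on the plus strand, Esp3 at chr17:40631825-40632124 and Esp6 at chr17:40561257-40561556. Capitals mark the bases that are not identical when both are aligned, which are 67 of the 300 bases in each.
Esp3: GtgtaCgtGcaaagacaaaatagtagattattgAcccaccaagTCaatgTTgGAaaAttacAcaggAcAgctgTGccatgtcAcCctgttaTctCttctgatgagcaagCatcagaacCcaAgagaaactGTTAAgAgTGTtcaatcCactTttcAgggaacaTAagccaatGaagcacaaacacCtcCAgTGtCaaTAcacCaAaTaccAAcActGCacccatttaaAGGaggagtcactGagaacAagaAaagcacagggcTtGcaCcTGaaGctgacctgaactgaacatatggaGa
Esp6: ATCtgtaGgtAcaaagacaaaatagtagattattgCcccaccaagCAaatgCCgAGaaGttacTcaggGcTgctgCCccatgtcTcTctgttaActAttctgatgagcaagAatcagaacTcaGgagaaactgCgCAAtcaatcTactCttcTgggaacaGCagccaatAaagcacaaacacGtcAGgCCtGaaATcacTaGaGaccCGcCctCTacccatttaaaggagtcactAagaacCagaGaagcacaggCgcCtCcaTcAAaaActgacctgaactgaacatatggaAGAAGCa

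The aligned Esp3 and Esp6 promoters were identical at 75.6% of positions. The most similar promoters in the family were those of Esp15 and Esp16, at 93.2%, and the least similar those of Esp8 and Esp31, at 39.8%. The promoter of Esp8, at chr17:40519772-40520071 on the plus strand, is printed because this gene moved opposite to Esp3, and its capitals mark the letters AGAACA.
Esp8: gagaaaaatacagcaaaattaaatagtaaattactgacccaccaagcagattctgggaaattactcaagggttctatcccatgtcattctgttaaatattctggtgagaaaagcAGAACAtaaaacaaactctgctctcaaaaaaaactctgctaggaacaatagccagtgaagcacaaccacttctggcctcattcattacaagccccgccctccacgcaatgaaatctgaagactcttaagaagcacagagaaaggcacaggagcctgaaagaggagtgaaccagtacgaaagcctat

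AGAACA, or its reverse complement TGTTCT, is the arm from which binding sites of the glucocorticoid receptor and related steroid receptors are built. The hexamer was found on either strand in 4 of the 13 Esp promoters that RefSeq gave here, those of Esp1, Esp3, Esp8 and Esp38, and in 19.0% of 32851 RefSeq promoters of the same length. It is thus present in Esp3 and Esp8, which were called in opposite directions, and these letters are not in the printed window of Esp6. The complete palindromic steroid response element, with both arms facing each other across 3 bases, was in none of the 13 and in 0.00913% of all promoters. Both strands were searched for each motif. The TATA box letters TATAAA were in 3 of the 13, those of Esp15, Esp16 and Esp23, and in 13.6% of all promoters. These matches lay at −207, −200 and −226 bases from the annotated start, the last on the reverse strand. CACGTG, the E-box to which clock proteins bind, was in none of the 13 and in 7.15% of all promoters. The same held for TTATGTAA, bound by Dbp and related factors (0.938% of all promoters), and for GTAAACA, bound by forkhead factors (3.65%). The word AGCAGCCAAT, picked after the sequences were compared, was shared by Esp1, Esp6, Esp15, Esp16 and Esp18 and stood in 0.396% of all promoters. No entry for Esp4 was found in the promoter table.

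Of the 8 members tested, 2 were called, Esp3 lower and Esp8 higher in CR. A call required an adjusted p under 0.05 together with a fold of at least 1.5, and 1.98% of all tested genes met both, 1.2% higher and 0.785% lower in CR.

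Esp3 was the member that fell under CR. In AL it stood at 52.0, 48.8, 32.3 and 69.3 CPM in replicates 1 to 4, and in CR at 2.69, 5.74, 2.66 and 13.3 CPM. The CR values were all lower than the lowest AL value, and the highest CR value was in replicate 4. The mean was 50.6 ± 15.2 CPM in AL and 6.09 ± 5.001 CPM in CR (SD, n = 4 each). The log2 fold change was −3.04, with a standard error of 0.47. The adjusted p was 0.00797 (edgeR, Benjamini-Hochberg over all 11211 genes tested). The call was lost with the level of the parotid transcripts as a covariate (−1.93, adjusted p = 0.589 in the same kind of edgeR fit). No gene of the table was called in that fit, and this level did not overlap between the diets. A DESeq2 estimate shrunken towards 0 was −1.998. The levels rest on 443 to 1366 counts in the AL libraries and 38 to 239 counts in the CR libraries. Esp3 had the 12th lowest log2 fold change of all tested genes. Its gene, at positions 40632075 to 40637060 on the plus strand, has 3 exons, and none of the 75-base windows in the last 600 bases of its transcript occurred in another transcript.

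Esp8 was the member that rose. Its counts in AL were 7, 12, 5 and 0, or 0.54, 0.74, 0.36 and 0 CPM, and in CR 417, 450, 476 and 53, or 29.5, 26.6, 29.5 and 2.94 CPM. The gene was thus barely detected in AL, and even the lowest CR value was above the highest AL value, with CR replicate 4 at 0.103 times the mean of the other CR libraries. The log2 fold change was 5.79 with a standard error of 0.80 and a 95% interval of 4.05 to 7.53 (adjusted p = 0.0055, edgeR with Benjamini-Hochberg adjustment). Esp8 passed the filter on low counts through its CR libraries, so a gene with its AL counts had to differ in order to be tested at all. The call was lost with voom (5.94, adjusted p = 0.0582) and with parotid level as a covariate (2.87, adjusted p = 0.624, edgeR), both adjusted by Benjamini-Hochberg. No gene of the table was called in the fit with this covariate, whose level did not overlap between the diets. The size of its change depends on how near-zero counts are handled, and a DESeq2 estimate shrunken towards 0 was 0.99. Esp8 lies at positions 40520022 to 40530702 on the plus strand, and 1.0% of the windows at its 3′ end recur in an overlapping transcript of the opposite strand, AC161605.4.

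**Figure D1:**
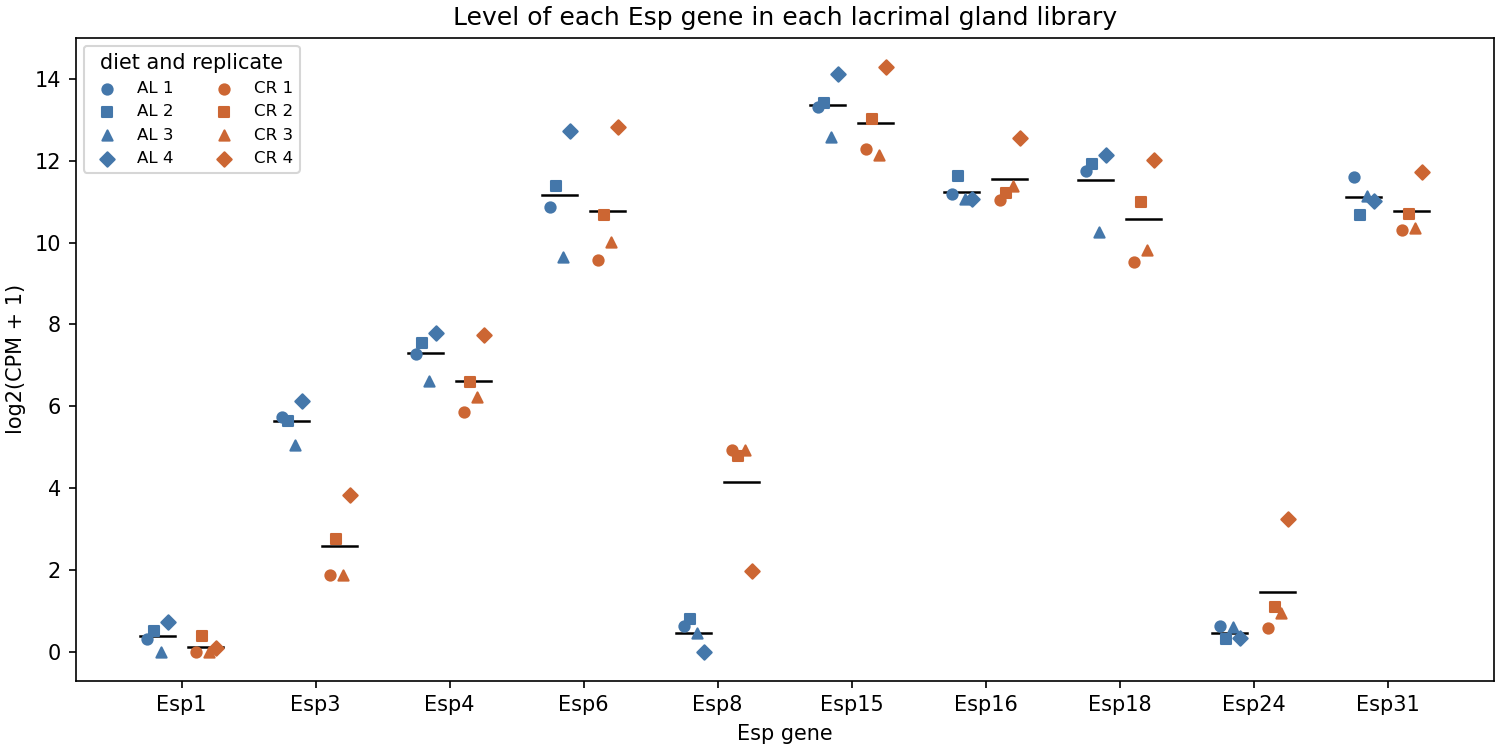
Level of the 10 Esp genes in each library as log2(CPM + 1), with AL in blue, CR in orange, 1 symbol per replicate number and a bar at the group mean. Esp3 and Esp8 are the members whose AL and CR libraries do not overlap, and the diamonds of replicate 4 stand highest in most of the other members.

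Groups without overlap were found for 2 of the 10 members, Esp3 and Esp8, both among the 8 tested. Esp8 passed the filter on low counts through its CR libraries, so its lack of overlap is not independent of that filter. Among all tested genes, 9.79% had groups without overlap, 4.58% with CR above AL and 5.2% with CR below AL. Both called members are among the less counted Esp genes, and the members with most of the reads behaved differently.

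Esp15 was the most counted member and took close to equal shares of the members' reads in both diets. It reached 10242, 10952, 6122 and 17974 CPM in AL and 4978, 8323, 4519 and 20101 CPM in CR. The groups overlapped widely, and the highest library of each group was replicate 4. The log2 fold change was −0.26 with a 95% interval of −1.42 to 0.91, which leaves room for a change in either direction. Esp15 made up 49.5% ± 2.45 of the counts of the 10 members in AL and 48.3% ± 3.80 in CR (SD, n = 4 each).

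Esp16, the closest relative of Esp15, had a log2 fold change of 0.43 (95% interval −0.39 to 1.25). Its levels in AL were 2344, 3183, 2140 and 2153 CPM and in CR 2111, 2359, 2659 and 6074 CPM. The CR group was spread by replicate 4, while the other 3 CR libraries lay within the AL range or just under it. The ends of the Esp15 and Esp16 transcripts were identical at 95.2% of positions, and 11.4% of the 75-base windows of each occur in the other, so reads may have been split between them and their separate values are uncertain.

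Esp18 and Esp6 varied most among the abundant members. Esp18 stood at 3439, 3906, 1230 and 4510 CPM in AL and 734, 2037, 907 and 4140 CPM in CR, with a log2 fold change of −0.74 (95% interval −1.94 to 0.45). Esp6 stood at 1861, 2662, 807 and 6770 CPM in AL and 767, 1637, 1040 and 7304 CPM in CR. Its log2 fold change was −0.17 with a 95% interval of −1.78 to 1.44, the widest of the members outside Esp8. In both genes the spread within each diet was larger than the difference between the diets. Esp6 shares 5.9% of its 3′ windows with Gm44501, a readthrough transcript of Esp6 and Esp5 that is listed at 0 in every library.

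Esp31 and Esp4 completed the members tested. Esp31 was at 3129, 1648, 2267 and 2085 CPM in AL and 1265, 1656, 1306 and 3395 CPM in CR, with a log2 fold change of −0.26 (95% interval −1.06 to 0.54). Esp4 was at 155, 185, 97.8 and 221 CPM in AL and 57.4, 96.0, 74.0 and 212 CPM in CR, with a log2 fold change of −0.58 (95% interval −1.40 to 0.23). In Esp4, CR replicates 1 to 3 lay below every AL library and replicate 4 lay among them. Without CR replicate 4, the log2 fold change of Esp4 was −1.12 and the gene was called (adjusted p = 0.0321, edgeR with Benjamini-Hochberg adjustment), against an adjusted p of 0.483 with all 8 libraries.

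**Figure D2:**
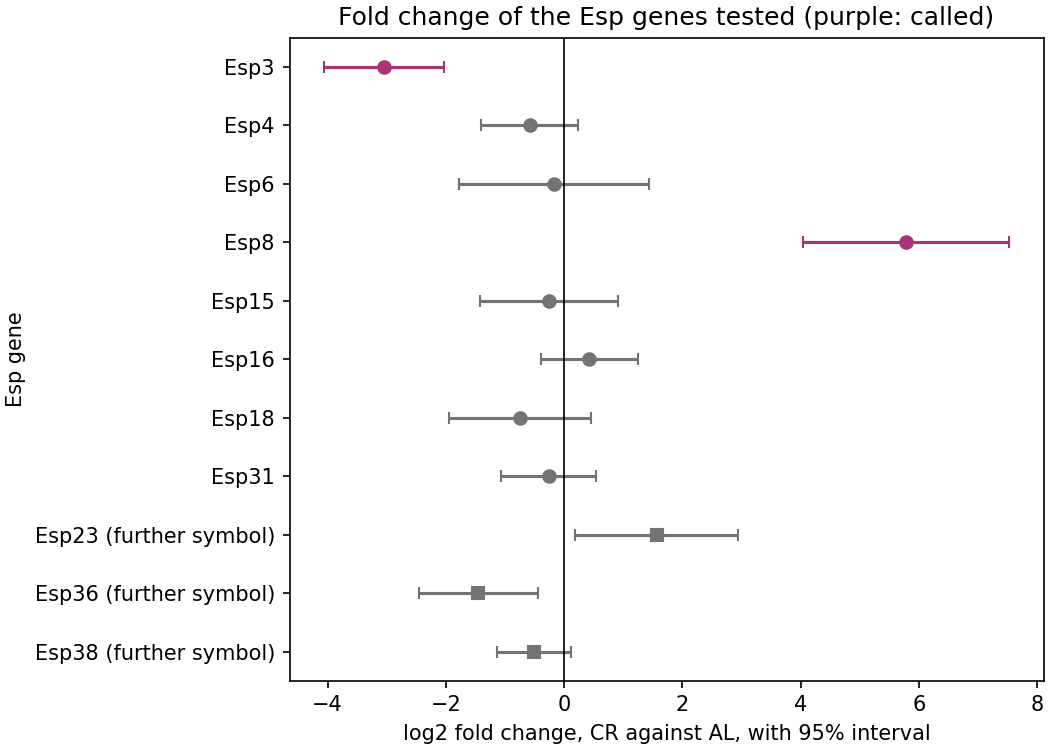
Log2 fold change (CR against AL) of the 8 members tested and of 3 further Esp symbols, with 95% intervals from the edgeR fit across all genes and purple for called genes. The interval of Esp3 (−4.06 to −2.03) lies below 0 and that of Esp8 (4.05 to 7.53) above it, while those of the other 6 members include 0.

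Of the 8 members tested, 6 had a log2 fold change below 0 and 2 above it, and the median was −0.26, beside 0.01 over all tested genes, of which 51.1% were above 0. Because Esp8 entered through its CR libraries, these numbers describe the members that passed the filter and not the family. Leaving out CR replicate 4 brought 7 of the 8 below 0, all but Esp8. Leaving out AL replicate 4 instead put Esp6 (0.60) and Esp15 (0.059) above 0, as Esp8 and Esp16 were. With the parotid covariate, Esp3 alone was below 0.

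Esp1 and Esp24 were near the limit of detection. Esp1, the gene of the male tear signal, had 3, 7, 0 and 13 counts in the AL libraries and 0, 5, 0 and 1 in the CR libraries. These are 23 counts in AL and 6 in CR, and the difference in mean log2(CPM + 1) was −0.27 (exact permutation test, two-sided, p = 0.257). Esp24 had 7, 4, 7 and 5 counts in AL and 7, 19, 15 and 152 in CR. The 152 counts of CR replicate 4 made up most of the 193 CR counts. Its difference in mean log2(CPM + 1) was 0.999 (exact permutation test, two-sided, p = 0.0857), and 4 against 4 libraries cannot give a p below 0.0286. Without CR replicate 1, the difference of Esp24 was 1.30 and reached the smallest p that 4 against 3 libraries can give here (exact permutation test, two-sided, p = 0.0286), and without CR replicate 4 it was 0.41. As a share of the counts of the 10 members, Esp24 was higher in every CR library than in any AL library. An edgeR fit with no filter on low counts called neither gene (Esp24 2.845 on the log2 scale, adjusted p = 0.0592, Benjamini-Hochberg).

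The 10 members together held between 1.45% and 3.005% of all counts in AL and between 0.976% and 3.85% in CR. The summed level was 21222, 22585, 12697 and 33782 CPM in AL and 9945, 16142, 10539 and 41250 CPM in CR. Both the lowest and the highest sum were in CR, and the mean difference of −0.39 on the log2 scale was smaller than the larger of the group SDs, 0.95. In this bulk tissue RNA, fewer cells that make a peptide and less RNA in each such cell cannot be told apart.

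CR replicate 4 stood apart from the other CR libraries, and AL replicate 4 did so less evenly. Of the 10 members, 6 had their highest AL value in AL replicate 4 and 8 their highest CR value in CR replicate 4. Relative to the mean of the other CR libraries, CR replicate 4 held 6.36 times the Esp6 level, 3.38 times the Esp15 level and 3.59 times the Esp3 level, but 0.103 times the Esp8 level. AL replicate 4 held 3.81 times the Esp6 level and 1.97 times the Esp15 level of the other AL libraries, but 0.842 times the Esp16, 0.888 times the Esp31 and 0.588 times the Esp24 level. These libraries also had the lowest parotid shares of their groups, 1.23% of all counts in AL replicate 4 and 5.26% in CR replicate 4, against 3.42% to 4.39% in the other AL libraries and 28.9% to 30.5% in the other CR libraries.

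**Figure D3:**
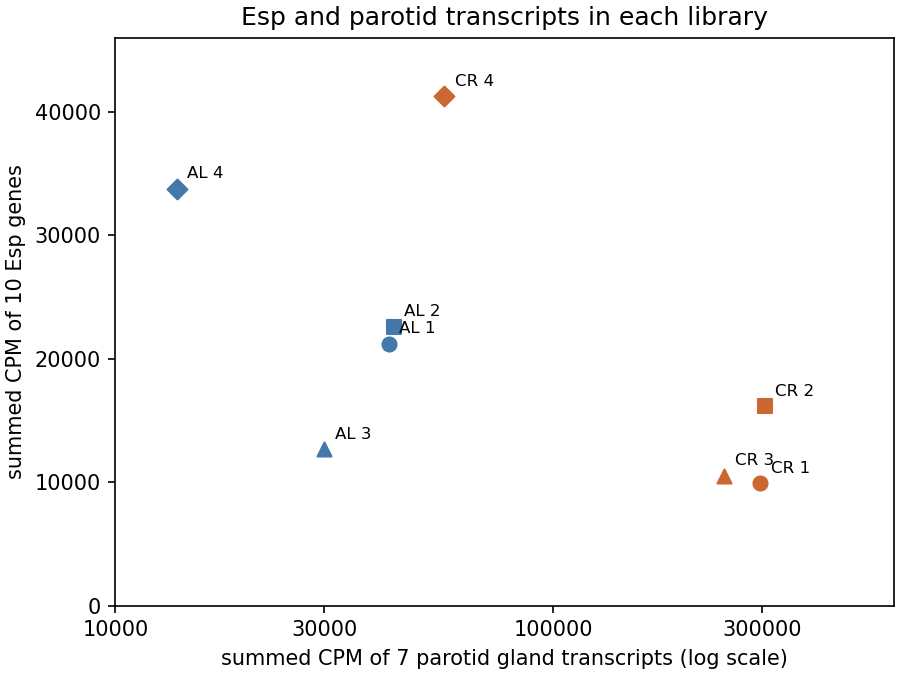
Summed CPM of the 10 Esp genes (vertical axis) against the summed CPM of 7 parotid transcripts (horizontal axis, log scale) in each of the 8 libraries. Replicate 4 of each diet combines the highest Esp sum of its group (33782 CPM in AL, 41250 CPM in CR) with the lowest parotid sum (13808 and 56392 CPM).

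To set aside how much of each library the Esp genes took up, members were also counted against each other. Per 1000 counts of Esp15, the AL libraries held 5.08, 4.45, 5.27 and 3.86 counts of Esp3 and the CR libraries 0.540, 0.690, 0.589 and 0.660. The ratio was 4.67 ± 0.643 in AL and 0.620 ± 0.0681 in CR (SD, n = 4 each), so that Esp3 differed from Esp15 to a like extent in all CR libraries, replicate 4 included. Per 1000 counts of Esp6, Esp3 stood at 27.95, 18.3, 40.0 and 10.2 in AL and at 3.51, 3.51, 2.56 and 1.82 in CR, again without overlap. Esp3 made up 0.230% ± 0.0233 of the counts of the 10 members in AL and 0.0300% ± 0.00473 in CR. A ratio within a library shows unequal change and not which of the genes changed.

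Esp8 stood in a near-constant ratio to the parotid gene Bpifa2 across the CR libraries. Per 100000 counts of Bpifa2, the CR libraries held 17.6, 16.1, 19.5 and 21.5 counts of Esp8, so the low level in CR replicate 4 went together with a low level of Bpifa2. The first 3 AL libraries held 3.04, 7.50 and 4.60, with exact 95% counting intervals of 1.22 to 6.26, 3.87 to 13.1 and 1.49 to 10.7. AL replicate 4 had no Esp8 count beside 3746 Bpifa2 counts, which gives an exact interval up to 98.5 per 100000 and no comparison. These intervals cover counting error only, and the part of parotid tissue, if any, in the Esp8 result was not tested.

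**Figure D4:**
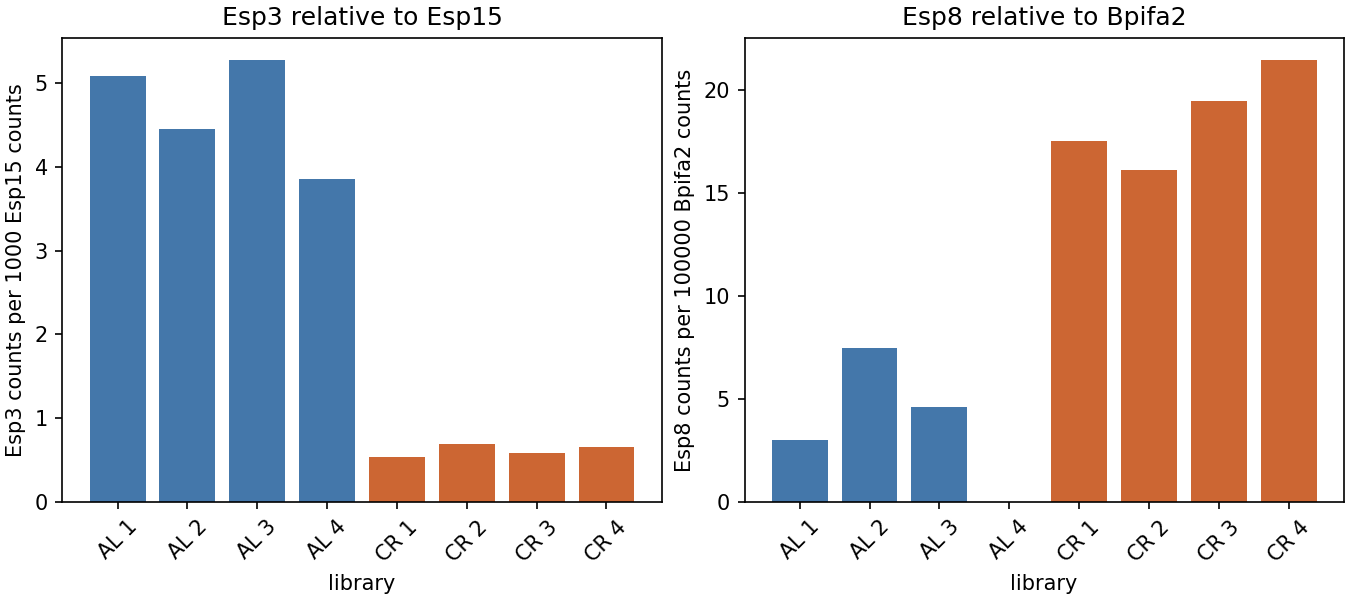
Counts of Esp3 per 1000 Esp15 counts (left) and of Esp8 per 100000 Bpifa2 counts (right) in each library, AL in blue and CR in orange. The left bars stand between 3.86 and 5.27 in AL and between 0.540 and 0.690 in CR, and the right bars between 16.1 and 21.5 in CR, with AL replicate 4 at 0.

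The summed level and the mean log2 level of the 7 parotid markers did not overlap between the diets (singly, 4 of the 7 did not, while Amy1, Bpifa2 and Dnase1 overlapped), so diet and the level of these transcripts cannot be told apart in these 8 libraries. With the mean log2 level of the 7 parotid markers as a covariate, no gene of the table was called (922 at an unadjusted p under 0.05), Esp3 had a log2 fold change of −1.93 (adjusted p = 0.589) and Esp8 one of 2.87 (adjusted p = 0.624) in edgeR with Benjamini-Hochberg adjustment. Without both libraries numbered 4, a choice made after the data were seen, Esp3 and Esp8 were called as before.

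Beside the members, the table holds 5 more Esp symbols, and none of the 3 that could be tested was called by edgeR or DESeq2, while voom called Esp36. Esp23 stood at 6.09, 7.79, 3.57 and 11.9 CPM in AL and 3.18, 23.9, 9.78 and 50.4 CPM in CR, with a log2 fold change of 1.57 (adjusted p = 0.232, edgeR with Benjamini-Hochberg adjustment). Esp36 stood at 284, 173, 139 and 279 CPM in AL and 21.9, 100.2, 52.6 and 145 CPM in CR, with a log2 fold change of −1.45 (adjusted p = 0.128). Both were past an unadjusted p of 0.05 (edgeR, 0.0297 and 0.0083), as were 16.7% of all tested genes, 8.62% higher and 8.1% lower in CR. The log2 fold change of Esp38 was −0.51. Esp5 had 6 counts and Esp34 had 3 counts in all libraries together.

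**Figure D5:**
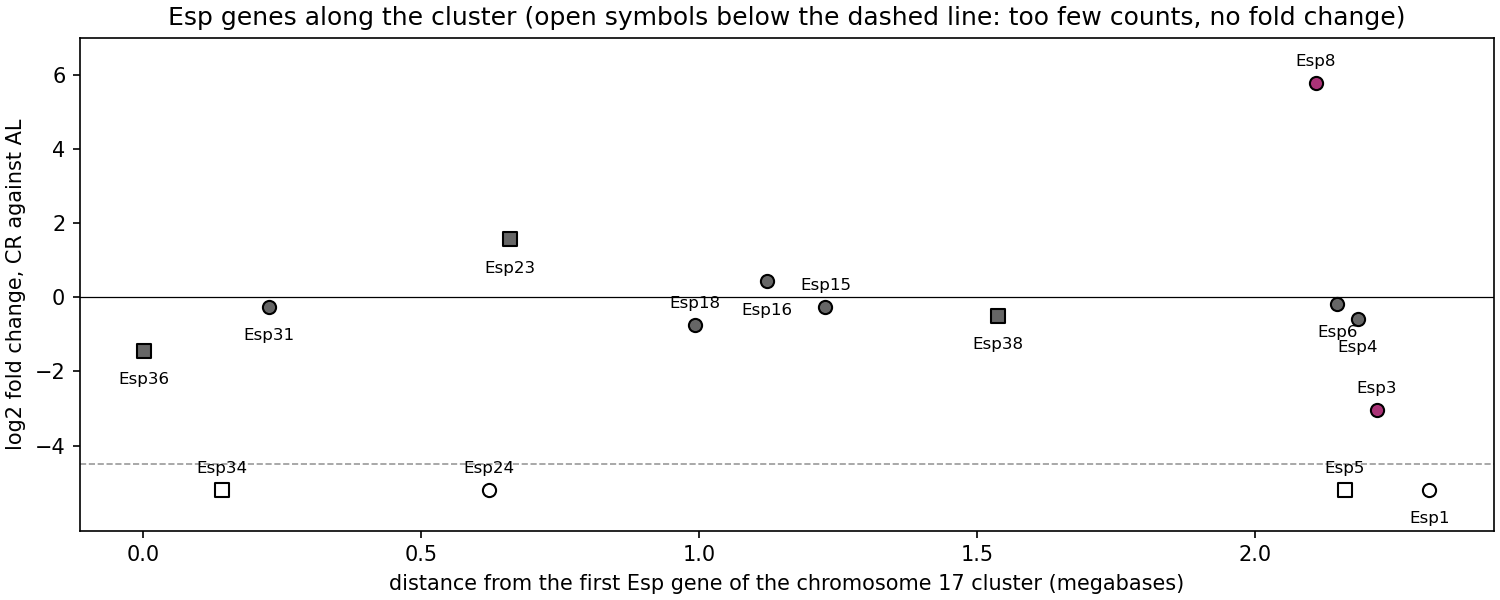
Log2 fold change (CR against AL) of the Esp genes by their distance in megabases from the first Esp gene of the cluster on chromosome 17, with circles for members, squares for further Esp symbols, purple for called genes and open symbols below the dashed line for genes with too few counts. Esp8 and Esp3, the highest and lowest of the filled points, lie in the same stretch as Esp6 and Esp4, which were not called (−0.17 and −0.58).

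Along the chromosome, Esp8, Esp6, Esp4 and Esp3 lie in this order on the same strand, with starts at 40520022, 40561507, 40598594 and 40632075, and Esp5 lies between Esp6 and Esp4. The called genes with opposite directions thus enclose members that were not called. The whole cluster of 2.32 megabases also holds Crisp1 and Crisp3, which encode cysteine-rich secretory proteins, and Pgk2, a sperm enzyme gene that was at 0 in every library. Crisp1 was at 59.9, 35.8, 37.1 and 1.42 CPM in AL and at 710, 709, 496 and 50.1 CPM in CR, a log2 fold change of 3.87 that missed the threshold (adjusted p = 0.0544, edgeR with Benjamini-Hochberg adjustment). Crisp3 reached at most 0.54 CPM in AL and 7.36 CPM in CR.

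The genes with the profile most like that of each called member were found by the root mean square difference of centred log2 CPM over the 8 libraries, where 0 is an identical profile. For Esp3 these were Glb1l2 (0.53), Dcdc2a (0.56), Gm14743 (0.59), the odorant-binding protein gene Obp1b (0.65) and A2ml1 (0.69), beside a median of 1.84 over all tested genes. Dcdc2a and A2ml1 were called lower in CR, with log2 fold changes of −2.76 and −2.41. Glb1l2, Gm14743 and Obp1b were not called and had values of −2.57, −2.35 and −1.85. For Esp8 they were the adenosine receptor gene Adora1 (0.77), Dusp26 (0.85), the transthyretin gene Ttr (0.86), the angiotensinogen gene Agt (0.98) and Crisp1 (0.99), beside a median of 2.94. Adora1, Dusp26, Ttr and Agt were called higher in CR, with log2 fold changes of 4.49, 4.19, 4.61 and 3.61. These genes were picked for their likeness to a called member, which largely fixes their direction and calls, so their values are a description over libraries that share diet and tissue content.

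The receiving side of the ESP system was all but absent from the LG. Of 7 genes for ESP receptors and vomeronasal signal transduction, Vmn2r111, Vmn2r112, Vmn2r115, Vmn2r116 and the channel gene Trpc2 had no count in any library, and the sum of the list reached at most 1.78 CPM. The G protein gene Gnao1, the 1 that was tested, had a log2 fold change of −0.34 and was not called by edgeR, DESeq2 or voom. Of 12 genes for hormone receptors, none of the 10 tested was called by edgeR or voom, 3 were at an unadjusted p under 0.05 in edgeR (16.7% of all tested genes), 2 were called higher by DESeq2, which called 6.26% of all genes (Ghr and Igf1r, for the growth hormone and insulin-like growth factor receptors), and their median log2 fold change was 0.16. The prolactin receptor gene Prlr had a log2 fold change of −0.44 and was not called.

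Genes for other chemosignal and odorant-binding proteins of tears and saliva were read in the same way. Of 65 symbols of the secretoglobin, major urinary protein, odorant-binding protein and lipocalin families, 28 had no count in any library and 20 were tested. By edgeR, 4 of the 20 were called, beside 1.98% of all tested genes, and 12 were at an unadjusted p under 0.05, beside 16.7%. DESeq2 called 10 and voom 9, beside 6.26% and 3.54% of all tested genes. Mup5 was called higher in CR, with a log2 fold change of 7.17. Scgb1b7 and Scgb2b7 were called lower, with means of 777 and 569.7 CPM in AL and 3.38 and 2.22 CPM in CR, where replicate 4 held nearly all of their counts. Scgb1b29, also called lower, averaged 3.96 CPM in AL and had no count in CR, at least 21.4-fold lower against a floor of 3 counts per library. These 3 genes passed the filter on low counts through their AL libraries and had to differ in order to be tested, so the counts and the median describe only the genes that passed. The median log2 fold change of the 20 was −0.91, also with Scgb1b29 at this bound, beside 0.01 over all tested genes, and these families contain near-identical copies whose reads may have been split.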

How the data were processed

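Total RNA of exorbital LGs from 4 AL and 4 CR female mice was sequenced by the authors as 3′ mRNA libraries (Lexogen QuantSeq FWD). The submitters' processing notes name cutadapt, FastQC, STAR, HTSeq and DESeq2 and the genome build mm10. Versions, strand setting and the treatment of reads with several matches are not given in the sources used here. The deposited table holds raw read counts per gene symbol, and a second table of normalized log2 values by the authors was not used. Of 24557 lines, 5 with a repeated symbol were dropped, which left 24552 genes, 16735 with a count.

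Counts were scaled with RLE factors and fitted with edgeR 4.0.16 (quasi-likelihood F test, filterByExpr, R 4.3.3), and p-values were adjusted by Benjamini-Hochberg over all 11211 genes that passed. Calls needed both an adjusted p under 0.05 and a change of at least 1.5 times. CPM values use the same factors. Esp1 and Esp24 were compared with an exact permutation test, two-sided, on log2(CPM + 1). Scripts were tested on simulated data. Totals ran from 12051881 to 22156511 counts, and precision is limited by 4 libraries per group with a biological coefficient of variation of 34.7%.

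The fit was repeated with TMM or upper-quartile scaling, DESeq2 1.42.0, limma 3.58.1 voom, robust dispersion, other filters and no fold threshold. Further fits used the replicate number as a block, the parotid covariate, the table without the 50 most counted genes, and libraries left out. Named genes were all members, the other Esp symbols, the 5 genes most like each called member, genes between the first and last Esp gene, and genes of the marker, receptor and chemosignal lists. The members and lists were chosen with earlier results of these data known. Promoters came from RefSeq (GRCm38.p6), with 9 of the 10 members found, and transcript ends from GENCODE vM21, both read with Python 3.11.15 and aligned with Biopython 1.88. No protein sequence was used here.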

Additional observations from a re-analysis of the deposited data

Results flagged for a closer look

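In each group of 4 libraries, the gap between the most extreme library and its nearest neighbour was divided by the whole range of the group, for 26 groups of Esp levels. The ratio was above the critical value of 0.829 in 5 groups, all of them CR, and CR replicate 4 was the extreme library in each. It lay above the others in Esp6 (0.867), Esp16 (0.862), Esp24 (0.921) and Esp38 (0.89) and below the others in Esp8 (0.893). Chance alone passes this value in about 1 of 20 groups, and the 5 groups come from the same library, so they are not independent of each other. CR replicate 4 also had the lowest parotid share of the CR libraries (5.26% of all counts), and its part in these values was not tested.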

How the results depend on the processing

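Esp3 and Esp8 kept their direction in every fit in which they were tested and were called in each of the 8 fits that left out 1 library, with log2 fold changes of −3.77 to −2.79 for Esp3 and 5.29 to 6.31 for Esp8. Esp8 was not called by voom (5.94, adjusted p = 0.0582), where the number of Esp genes called was 1, and was not tested where at least 10 counts were required in every library, which also left 1. With the parotid covariate, the number of Esp genes called was 0, and of all genes 0 were higher and 0 lower, with 922 at an unadjusted p under 0.05 (edgeR). There Esp3 was −1.93 and Esp8 2.87, and Esp4 (0.57), Esp6 (2.68), Esp15 (1.17), Esp18 (0.27) and Esp31 (0.08) changed sign. The cause was not tested. When 1 library was left out, Esp6 ran from −1.40 to 0.60, and was above 0 without AL replicate 4 (0.60) or any of CR replicates 1 (0.14), 2 (0.009) and 3 (0.10). Esp15 ran from −0.93 to 0.059 and was above 0 without AL replicate 4. Esp16 ran from −0.048 to 0.60 and was below 0 without CR replicate 4, and also without both libraries numbered 4 (−0.11). Esp18 ran from −1.42 to −0.47 and Esp31 from −0.70 to −0.063, both below 0 and not called in each of these fits. Of 162 values of the 8 tested members under the alternatives, 146 kept their direction and their side of the threshold.

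The number of Esp genes called ran from 2 to 3 when 1 library was left out, the additional gene being Esp4 without CR replicate 4. Over all genes, 134 were called higher and 88 lower. The counts were 385 and 317 with DESeq2, 366 and 304 with its shrunken fold changes, 237 and 160 with voom, 271 and 165 with no filter, and 413 and 243 without both libraries numbered 4, a setting added after seeing the data. Leaving out 1 library gave 35 to 453 higher and 25 to 247 lower. Both counts were highest without CR replicate 4 (453 and 247). They were 43 and 35 without AL replicate 1, 35 and 26 without AL replicate 2, and 49 and 38 without AL replicate 3. They were 75 and 46 without CR replicate 1, 40 and 25 without CR replicate 2, and 38 and 26 without CR replicate 3. The summed level of the Esp genes differed by −0.84 to −0.15 on the log2 scale when 1 library was left out. Among the rarely counted members, Esp24 differed by 1.30 without CR replicate 1 (exact permutation p = 0.0286) and by 0.41 without CR replicate 4. Esp1 ran from −0.40 to −0.16 when 1 library was left out. With 0.1 in place of 1 added to each CPM value, Esp1 differed by −1.11 and Esp24 by 1.77, so both sizes depend on this choice.

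With a replicate block, 388 genes were called higher and 312 lower, and Esp3 (−3.27, adjusted p = 3.63e-05) and Esp8 (5.76, adjusted p = 4.33e-06) stayed called (edgeR with Benjamini-Hochberg adjustment). Deviations of same-numbered libraries correlated at 0.149, 0.079, 0.244 and 0.462, the last being the highest of all pairs. AL replicate 3 correlated best with CR replicate 1 (0.324). The labels state no pairing, so the main fit used none, and whether the numbers mark libraries handled together was not tested. The fit without the 50 most counted genes left 5 of the 8 members out, since these are among the genes removed. Depth limited Esp1, Esp24 and the AL level of Esp8, where few counts carry each value.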
